A study of Danio rerio with 8 samples.

Results

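The genes described here are the SoxE genes sox9a, sox9b and sox10 and the SoxD genes sox5 and sox6, which are 5 of the 32057 genes in the deposited table, picked by symbol. They encode transcription factors that bind DNA through a high mobility group (HMG) box. All 5 passed the filter on low values described below. They were measured in chondrocytes, the cells that build cartilage, of zebrafish larvae 3 days after fertilisation.

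The study compared 4 kat6a libraries with 4 WT libraries. The kat6a larvae are kat6a-deficient, with a lesion that no label describes, and carry the transgenes Tg(sox10:EGFP) and Tg(col2a1a:mcherry). The WT larvae carry the same 2 transgenes, so both groups share them. The medium of both held 0.003% PTU, which blocks pigment formation, and the larvae were kept at 28.5 degrees Celsius. Cells in which both reporters were active were isolated by fluorescence-activated sorting from whole larvae. No label says how many larvae were pooled for a library. The series design names biological replicates. KAT6A is a MYST histone acetyltransferase, and the comparison asks how gene expression differs in chondrocytes that lack it.

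SOX9 is the transcription factor that starts and maintains the chondrocyte state in vertebrates. It binds enhancers of cartilage matrix genes as a dimer, and SOX5 and SOX6, which lack an activation domain of their own, bind nearby and strengthen its action. Zebrafish keep a pair of sox9 genes from a duplication of the genome in early teleosts, and sox9a is the copy whose loss removes most head cartilage. SOX10 is best known from neural crest, pigment cells and glia. The sox10 reporter used in the sort labels neural crest and cells that come from it, chondrocytes of the face among them. A gene whose regulatory sequence drives the sorting reporter is favoured by the sort, so the presence of sox10 in these cells is not a finding.

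Values are FPKM, fragments scaled by transcript length and library total, so that levels of different genes can be compared. The table gives no read counts, so the depth behind each value is unknown. Summed FPKM ran from 311061 to 339307 per library, and 11010 to 16108 genes stood above 0. The libraries numbered 1 of both groups stood apart from the other 6. The 10 genes with the highest mean took 16.1% of all FPKM in kat6a replicate 1 and 12.4% in WT replicate 1, and 25.1% to 29.2% in the rest. For col2a1a, the collagen gene whose regulatory sequence drives the other sorting reporter, FPKM was 10783, 19601, 19200 and 17360 in kat6a replicates 1 to 4, against 8994, 20538, 19811 and 17827 in WT replicates 1 to 4. The targeted gene kat6a was at 28.2, 11.98, 12.4 and 9.09 FPKM in kat6a libraries, against 32.0, 15.2, 16.3 and 18.9 FPKM in WT libraries. The groups overlapped, and in each of the 4 pairs of the same number the kat6a library was the lower, as for 16.3% of all tested genes. The limma adjusted p was 0.958, with an unadjusted p of 0.224. With the replicate block the unadjusted p was 0.0315 and the adjusted p 0.458, and without the pair numbered 1 they were 0.0204 and 0.782. At an unadjusted limma p under 0.05, 978 of 11763 tested genes were lower in kat6a with the block. Without that pair 502 of 11336 were. Transcript level alone does not check a lesion that may leave the transcript in place.

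Chondrocyte markers were strong in every library. Summed FPKM of the 8 chondrocyte markers was 32787 to 56217 in kat6a and 26668 to 56729 in WT. The sort itself favours col2a1a, which is among the 8, so the strength of col2a1a is not a finding. Of 21 pigment cell markers, cells that also use sox10, 9 were listed at 0 in all 8 libraries, tyr and dct among them, and the list summed to 2.02 to 3.199 FPKM in kat6a and 0.562 to 2.77 FPKM in WT. The 13 Schwann cell and glia markers summed to 11.0 to 25.3 FPKM in kat6a and 19.4 to 49.2 FPKM in WT. Of 9 tested, 8 had a log2 fold change below 0, beside 69.5% of all tested genes, and the median was -0.50. Only fabp7a had an unadjusted limma p under 0.05, beside 3.92% of all tested genes lower in kat6a. Its log2 fold change was -1.56 ± 0.70 (SE), with a limma adjusted p of 0.958 and overlap of the groups. Inner ear markers, of a tissue that uses both sox9 and sox10, summed to 13.5 to 20.6 FPKM in kat6a and 6.05 to 41.4 FPKM in WT over 9 genes. The gene stm gave most of that sum, at 10.3 to 19.5 FPKM in kat6a and 4.01 to 30.7 FPKM in WT. Notochord markers summed to 13.7 to 27.3 FPKM in kat6a and 16.3 to 23.5 FPKM in WT over 8 genes. That sum was mostly ntd5, col8a1a and ihhb, with noto and tbxtb listed at 0 in all 8 libraries. None of these sums separated the groups. Lens markers did, at 0.438 to 23.5 FPKM in kat6a and 77.4 to 228.5 FPKM in WT over 10 genes. Fast muscle markers summed to 609 to 1008 FPKM in kat6a and 463 to 711 FPKM in WT, and osteoblast markers to 762.4 to 1896 FPKM in kat6a and 503 to 2511 FPKM in WT, both with overlap of the groups. Most of the osteoblast sum was the collagen X gene col10a1a, at 744 to 1874 FPKM in kat6a and 484 to 2500 FPKM in WT. The osteoblast marker sp7 was at 0.402 to 1.31 FPKM in kat6a and 0.528 to 1.43 FPKM in WT. All 10 tested fast muscle markers had a log2 fold change above 0, with a median of 0.50, while 69.5% of all tested genes were below 0. Of these 3 had an unadjusted limma p under 0.05, beside 0.646% of all tested genes with such a p and higher in kat6a. For 2, mylpfb and tnnt3b, the groups did not overlap, beside 0.561% of all tested genes with kat6a above every WT library. The part of these cell types in the Sox values was not tested.

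The 5 genes spanned a wide range of levels, and sox9a led in all 8 libraries. FPKM of sox9a (ENSDARG00000003293) was 484, 515, 439 and 416 in kat6a replicates 1 to 4, against 905, 440.5, 391 and 294 in WT replicates 1 to 4. The kat6a libraries lay close together and inside the range of the WT libraries, whose spread came mostly from WT replicate 1. The mean was 463 ± 44.6 FPKM in kat6a and 508 ± 272 FPKM in WT (SD, n = 4 each). By mean over the 8 libraries sox9a ranked 95 among all genes of the table.

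Next came sox6, sox5 and sox10, whose ranges overlapped. FPKM of sox6 (ENSDARG00000015536) was 118, 101, 105 and 119.8 in kat6a libraries, against 103.5, 90.5, 111 and 114 in WT libraries. It was the steadiest of the 5, with 111 ± 9.36 FPKM in kat6a and 105 ± 10.5 in WT (SD, n = 4 each). FPKM of sox5 (ENSDARG00000011582) was 137, 65.6, 85.2 and 81.5 in kat6a libraries, against 136, 57.3, 89.7 and 85.8 in WT libraries. FPKM of sox10 (ENSDARG00000077467) was 123, 64.4, 83.3 and 63.8 in kat6a libraries, against 144, 69.96, 71.6 and 84.1 in WT libraries. For both sox5 and sox10 the libraries numbered 1 were the highest of their group. Within libraries sox6 was above sox5 in 6 of 8 and above sox10 in 6 of 8, the exceptions being the libraries numbered 1, and sox5 was above sox10 in 6 of 8. The order of these 3 genes is therefore not set beyond the spread between libraries.

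The duplicate sox9b (ENSDARG00000043923) was by far the lowest of the 5. Its FPKM was 6.70, 0.556, 0.751 and 0.633 in kat6a libraries, against 7.29, 0.813, 0.806 and 2.43 in WT libraries. Both libraries numbered 1 stood above the other 6, and the groups overlapped. The level of sox9a was 72.2 to 927 times that of sox9b in kat6a libraries and 121 to 542 times in WT libraries. Of FPKM summed over these 3 SoxE genes, leaving out sox8a, sox9a supplied 78.9% to 88.8% in kat6a and 77.2% to 86.2% in WT. The share of sox10 was 11.1% to 20.04% in kat6a and 13.6% to 22.1% in WT, and that of sox9b 0.0958% to 1.09% in kat6a and 0.159% to 0.690% in WT. The sum of sox9a, sox9b and sox10 exceeded that of sox5 and sox6 in every library, with a ratio of 2.39 to 3.48 in kat6a and 1.90 to 4.41 in WT.

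**Figure D1:**
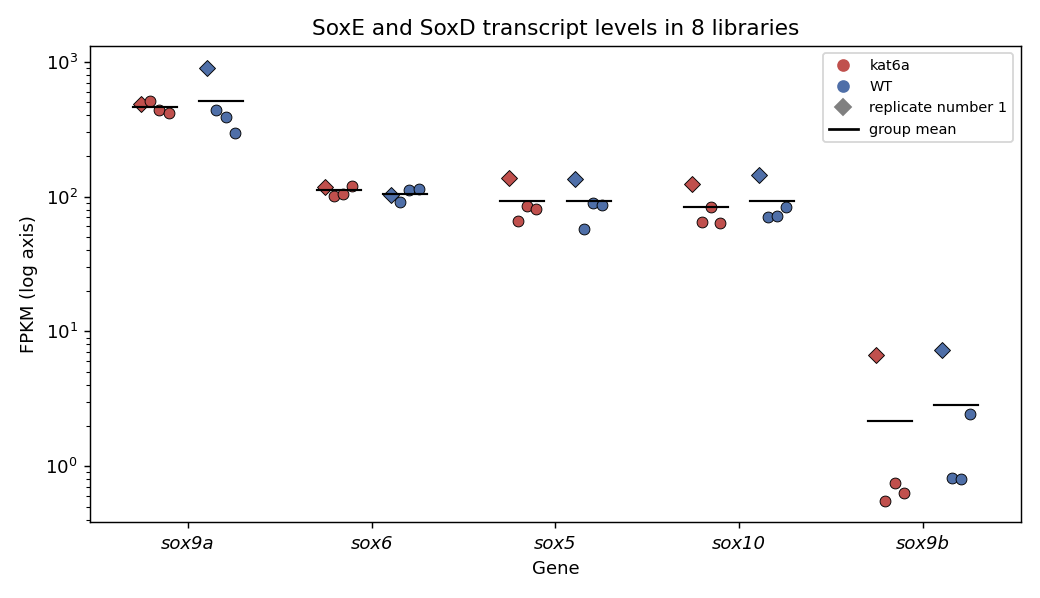
FPKM (log axis) of the 5 Sox genes in 4 kat6a libraries (red, left) and 4 WT libraries (blue, right), with libraries numbered 1 as diamonds and group means as lines. The gene sox9a lies above the rest at 294 to 905 FPKM, sox9b lies lowest at 0.556 to 7.29 FPKM, and the groups overlap for each gene.

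No difference between kat6a and WT was detected for any of the 5 genes. Differences were tested on log2(FPKM + 1) with limma over 11763 genes with a mean of at least 0.5 FPKM, and fold changes are kat6a over WT on that scale, where the added 1 shrinks the change of genes with low values. A gene was called where its p, adjusted by Benjamini-Hochberg over all these genes, was under 0.05. That held for 0 of the 5 Sox genes and for 0.0170% of tested genes, namely the 2 lens genes mipb and cryba4. At an unadjusted p under 0.05 stood 0 of the 5 Sox genes and 4.57% of tested genes, 3.92% lower in kat6a and 0.646% higher. The groups did not overlap for 0 of the 5 and for 3.13% of tested genes, 2.57% with kat6a below and 0.561% with kat6a above. Over all tested genes the median log2 fold change was -0.16. It moved to -0.041 with median-ratio scaling, to 0.0020 with upper-quartile scaling and to 0.017 with quantile normalisation. These methods bring the libraries to a common level, so a median near 0 follows from the method. Where the negative median comes from was not tested. In a bulk measurement fewer cells of a type and less RNA per cell cannot be told apart.

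The log2 fold change of sox9a was -0.0029 ± 0.29 (SE), with a limma adjusted p of 0.9999 and a 95% interval of -0.66 to 0.65. That interval leaves room for a level 0.634 to 1.57 times that of WT. The value depended on WT replicate 1. Without this library it was 0.32 with an unadjusted limma p of 0.0867 and an adjusted p of 0.980, and without both libraries numbered 1 it was 0.30, with a 95% interval of -0.086 to 0.68. In pairs of the same number, sox9a was lower in kat6a in pair 1, by 0.90 on the log2 scale, and higher in the other 3.

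For sox9b the log2 fold change was -0.36 ± 0.63 (SE), with a limma adjusted p of 0.989 and a 95% interval of -1.77 to 1.05, the widest of the 5. Pair by pair, sox9b was lower in kat6a in 4 of 4, by -0.11, -0.22, -0.045 and -1.07 on the log2 scale, and 16.3% of all tested genes were likewise lower in every pair. No Sox gene of the 5 was higher in 4 of 4 pairs, against 4.49% of tested genes. The kat6a mean was 2.16 ± 3.03 FPKM and the WT mean 2.83 ± 3.07 FPKM (SD, n = 4 each), so that within each group the spread exceeded the mean difference. Without kat6a replicate 1 the value was -0.92, and without WT replicate 1 it was 0.11. In the remaining 3 libraries of each group sox9b stood at 0.647 ± 0.0983 FPKM in kat6a and 1.35 ± 0.935 FPKM in WT (SD, n = 3 each), where WT replicate 4 alone was above 1 FPKM. The exact permutation test of sox9b gave a two-sided p of 0.457, where 0.0286 is the smallest it can give.

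The third SoxE gene, sox10, had a log2 fold change of -0.13 ± 0.29 (SE), a limma adjusted p of 0.989 and a 95% interval of -0.76 to 0.51. It was lower in kat6a in 3 of 4 pairs. The library names of WT replicates 3 and 4 carry the same number, and the pairs follow the sample titles. For sox10 this matters, since kat6a replicate 3, at 83.3 FPKM, lay above WT replicate 3, at 71.6 FPKM, and below WT replicate 4, at 84.1 FPKM. Under median-ratio and upper-quartile scaling its sign turned, to 0.029 and 0.088.

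The SoxD genes had intervals around 0. The log2 fold change of sox5 was 0.014 ± 0.29 (SE), with a limma adjusted p of 0.999 and a 95% interval of -0.64 to 0.66, and the group means were 92.3 ± 31.0 FPKM in kat6a and 92.2 ± 32.6 FPKM in WT (SD, n = 4 each). In 2 of 4 pairs sox5 was higher in kat6a. The log2 fold change of sox6 was 0.085 ± 0.15 (SE), with a limma adjusted p of 0.989. Its 95% interval of -0.25 to 0.42 was the narrowest of the 5 and leaves room for 0.839 to 1.34 times the WT level. The sign of sox5 turned without kat6a replicate 1 and without WT replicate 2, to -0.19 in each case, and with array weights, to -0.0043, while sox6 kept its sign in all 19 alternatives. A missed threshold does not show that levels were equal: without a block the intervals of sox5 and sox10 leave room for 0.643 to 1.58 and 0.589 to 1.42 times the WT level. With the replicate number as a block the 95% limma intervals were narrower. On the log2 scale they ran from -0.22 to 0.24 for sox5, -0.14 to 0.31 for sox6 and -0.42 to 0.16 for sox10. For sox9a the blocked interval was -0.52 to 0.51 and for sox9b -1.01 to 0.29.

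**Figure D2:**
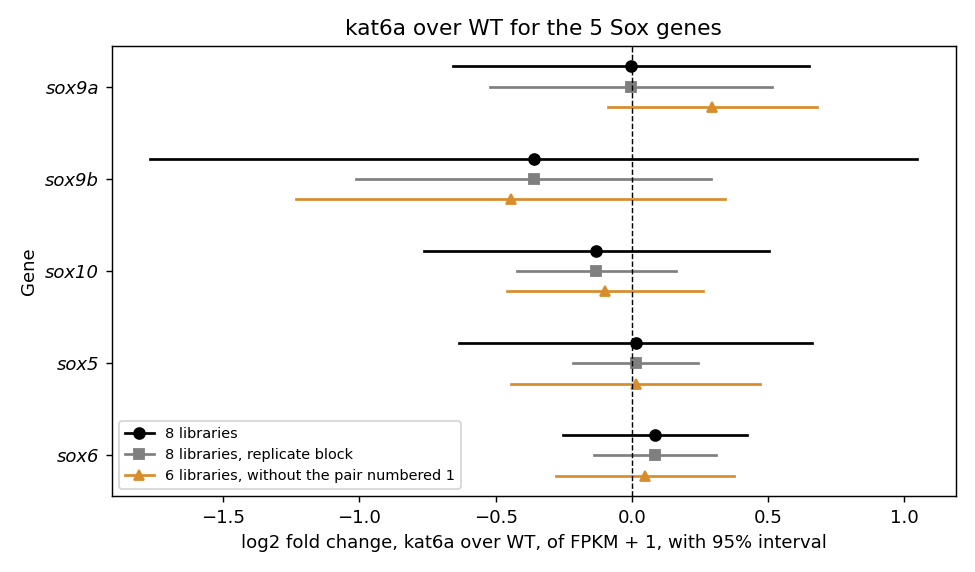
Log2 fold change of FPKM + 1, kat6a over WT, for each of the 5 Sox genes, with 95% limma intervals from 8 libraries (black), from 8 libraries with the replicate number as a block (grey) and from the 6 libraries without the pair numbered 1 (orange). Every interval includes 0, and sox9b has the widest, from -1.77 to 1.05 in the fit to 8 libraries.

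A test of the authors' own is also in the authors' deposited table, as a fold with WT on top, a p and a q per gene. Its direction was read from the 52 genes listed at 0 in every kat6a library and above 0 in every WT library, all of which have a fold above 1. In the authors' deposited table the fold was 0.895 for sox9a, 0.817 for sox9b, 0.898 for sox10, 0.812 for sox5 and 0.920 for sox6. All 5 are below 1, toward a higher level in kat6a. The share of all genes with a fold below 1 was not computed, so this count has no background. The p-values of the authors' test, in the authors' deposited table, were 0.0843 for sox5, 0.224 for sox10, 0.294 for sox6, 0.403 for sox9b and 0.670 for sox9a. The authors' deposited table gives q-values of 0.877 for sox5, 0.880 for sox6, sox9b and sox10, and 0.907 for sox9a. The mean FPKM of sox9a, sox9b and sox10 was lower in kat6a. By pairs sox9a was higher in kat6a in 3 of 4, sox9b in none and sox10 in 1 of 4. With median-ratio scaling the limma log2 fold change was 0.16 for sox9a and 0.029 for sox10, toward the direction of the authors' deposited table. For sox9b it was -0.26 with that scaling, still in the opposite direction. No header says how libraries were scaled for that fold.

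The replicate number went with larger differences than the genotype for 3 of the 5 genes. For sox9b, sox10 and sox5 both libraries numbered 1 stood above the other 6 libraries, which was also so for 28.5% of all tested genes. The level of sox9b in the library numbered 1 was 10.4 times the mean of the other 3 in kat6a and 5.40 times in WT. For sox10 that ratio was 1.74 in kat6a and 1.91 in WT, and for sox5 it was 1.77 in kat6a and 1.75 in WT. For sox6 it was 1.09 in kat6a and 0.983 in WT. For sox9a the groups differed in this respect, with 1.06 in kat6a and 2.41 in WT.

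The balance of the SoxD genes moved accordingly. The ratio of sox5 to sox6 was 1.16, 0.649, 0.811 and 0.680 in kat6a replicates 1 to 4, against 1.31, 0.633, 0.805 and 0.754 in WT replicates 1 to 4. It was above 1 in the libraries numbered 1 and below 1 in the other 6, in both groups alike. Relative to col2a1a the shift was larger, since col2a1a was lower in the same libraries. Per 1000 FPKM of col2a1a there were 12.7 FPKM of sox5 in kat6a replicate 1 and 15.1 in WT replicate 1, beside 2.79 to 4.82 elsewhere. For sox10 the values were 11.4 in kat6a replicate 1, 15.99 in WT replicate 1 and 3.29 to 4.72 elsewhere. For sox6 they were 10.97 in kat6a replicate 1, 11.5 in WT replicate 1 and 4.41 to 6.90 elsewhere, and for sox9a 44.9, 100.6 and 16.5 to 26.3 in the same order.

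Some markers of other cell types differed in the same libraries, in both directions. The myelin gene mpz was at 2.79 FPKM in kat6a replicate 1 and 2.23 in WT replicate 1, and listed at 0 in the other 6. The claudin gene cldnk was at 5.30 FPKM in kat6a replicate 1, 3.73 in WT replicate 1 and 0 to 0.454 elsewhere. Tendon and perichondrium markers summed to 118 FPKM in kat6a replicate 1, 124 in WT replicate 1 and 49.9 to 96.5 elsewhere. The collagen gene col12a1a alone gave 84.1 FPKM of that sum in kat6a replicate 1 and 85.0 in WT replicate 1. Both libraries numbered 1 stood above the rest for 2 of 7 tested members, col12a1a and col12a1b, near the 28.5% of all tested genes. They stood below the rest for 1, postnb, beside 6.21% of all tested genes. The osteoblast marker sum went the other way, at 762.4 FPKM in kat6a replicate 1, 503 in WT replicate 1 and 1344 to 2511 elsewhere. Most of it was the collagen X gene col10a1a, so the sum describes that gene rather than the list. Of 6 tested osteoblast markers both libraries numbered 1 stood below the rest for 1, col10a1a, beside 6.21% of all tested genes. They stood above the rest for 1, beside 28.5% of all tested genes. Notochord markers summed to 13.7 FPKM in kat6a replicate 1, 16.3 in WT replicate 1 and 18.2 to 27.3 elsewhere. In both libraries numbered 1, 2 of 3 tested members, col8a1a and ihhb, were below the rest, beside 6.21% of all tested genes. The other tested member, ntd5, was at 10.8 FPKM in kat6a replicate 1, 13.3 in WT replicate 1 and 5.01 to 11.3 elsewhere. Among 9 tested Schwann cell and glia markers, 5 had both libraries numbered 1 above the rest, beside 28.5% of all tested genes. As a sum the 13 listed markers stood at 25.3 FPKM in kat6a replicate 1, inside the 11.0 to 42.0 of the other 6. In WT replicate 1 that sum was 49.2 FPKM. The highest of them, fabp7a, was at 0 FPKM in kat6a replicate 1, 10.3 in WT replicate 1 and 3.37 to 24.0 elsewhere. The part of these cells in the levels of sox9b, sox10 and sox5 was not tested.

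**Figure D3:**
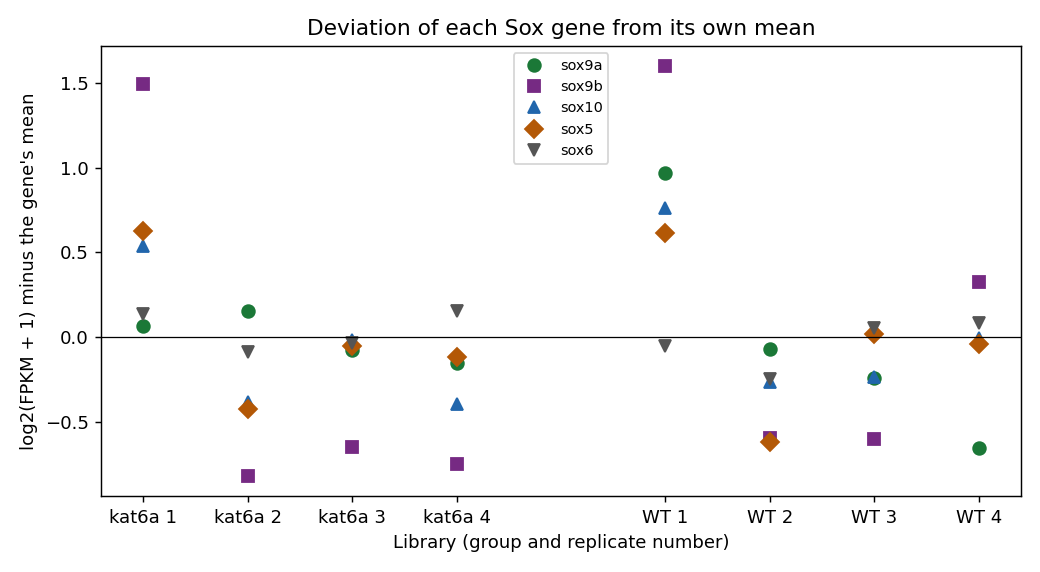
Deviation of log2(FPKM + 1) of each Sox gene from its own mean over 8 libraries, by library, with kat6a libraries left and WT libraries right. In both libraries numbered 1 sox9b, sox10 and sox5 lie above their values elsewhere, sox6 stays near 0, and sox9a is high in WT replicate 1 and not in kat6a replicate 1.

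The genes whose profiles lay nearest to each Sox gene were found by the root mean square difference of centred log2(FPKM + 1) over the 8 libraries, among 4653 genes with a mean of at least 5 FPKM. All these genes share the libraries, so the distance is a description. For sox9a the nearest were boc, at a distance of 0.15, atp6v0a1a at 0.16 and mob2b at 0.17. Like sox9a, boc was higher in WT replicate 1, at 119 FPKM, than in kat6a replicate 1, at 82.1 FPKM. For sox9b the nearest were quo, nuak1b and fbln2, at 0.20, 0.20 and 0.21. The matrix gene fbln2 was at 34.6 FPKM in kat6a replicate 1 and 39.1 in WT replicate 1, against 6.95 to 11.1 in the other 6 libraries. For sox10 they were ctdsplb, frya and fryl, at 0.074, 0.075 and 0.082, for sox5 phf2, prkci and ahcy, at 0.084, 0.086 and 0.093, and for sox6 dnaja2a, fgfr2 and gtpbp4, at 0.049, 0.072 and 0.073. Among the 5 Sox genes themselves the closest pair was sox10 and sox5, at 0.19, and the most distant sox9b and sox6, at 0.93. The sox9 duplicates lay 0.82 apart.

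Of the other SOX genes 22 rows are in the table under 21 symbols, and 10 passed the filter. A further SoxE gene, sox8a, was at 4.28, 4.31, 6.39 and 5.07 FPKM in kat6a libraries, against 4.45, 5.87, 6.51 and 4.67 FPKM in WT libraries. It was above sox9b in 6 of 8 libraries, all but those numbered 1. Its log2 fold change was -0.086 ± 0.24 (SE), with a limma adjusted p of 0.989, and turned sign under median-ratio scaling, at 0.044, upper-quartile scaling, at 0.094, and quantile normalisation, at 0.11. The remaining SoxD gene, sox13, was at 0.460, 0.415, 0.549 and 0.399 FPKM in kat6a libraries, against 1.12, 0.440, 0.812 and 0.916 FPKM in WT libraries, lower in kat6a in 4 of 4 pairs. Its log2 fold change was -0.31 ± 0.25 (SE), with a limma adjusted p of 0.958, and was 0.013 with quantile normalisation. The gene sox8b did not pass the filter and was above 0 in WT replicates 2 and 4 alone.

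Of the other SOX genes the highest were sox4a, sox11a and sox11b, which belong to the SoxC group known from neural and mesenchymal progenitors. FPKM of sox4a was 45.0, 11.8, 12.8 and 19.8 in kat6a libraries, against 47.7, 29.4, 24.9 and 2.11 in WT libraries, and that of sox11a 24.8, 7.68, 8.23 and 9.50 in kat6a libraries, against 27.9, 11.6, 10.96 and 15.2 in WT libraries. Both were highest in the libraries numbered 1. FPKM of sox11b was 2.98 to 6.91 in kat6a and 2.88 to 9.80 in WT, while the SoxC genes sox4b and sox12 lay below sox8a, with means over the 8 libraries of 1.63 and 0.562 FPKM. A second row under the symbol sox4a was listed at 0 in every library. Of the 10 tested SOX genes none was called and none had an unadjusted p under 0.05. Their median log2 fold change was -0.32, with 1 above 0 and 9 below, beside -0.16 over all tested genes, of which 69.5% were below 0. The groups did not overlap for 1 of the 10, sox21b, a gene of neural progenitors in other vertebrates, beside 3.13% of all tested genes. It was at 0.291, 0, 0.312 and 0 FPKM in kat6a libraries, against 1.86, 0.635, 0.542 and 0.457 FPKM in WT libraries, with a log2 fold change of -0.66 ± 0.30 (SE) and a limma adjusted p of 0.958.

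Cartilage genes that SOX9 drives with SOX5 and SOX6 are the usual readout of these factors. The sort took cells with an active col2a1a reporter, and col2a1a is in this list. Whether the sort narrows group differences in these genes, or in sox9a, sox5 and sox6, was not tested. Of 30 listed symbols 27 were in the table and 26 were tested. None was called, none had an unadjusted p under 0.05, and the groups did not overlap for 0 of the 26. The median log2 fold change was 0.078, with 21 members above 0 and 5 below. Over all tested genes the median was -0.16 and 69.5% were below 0. Without WT replicate 1 the median of the list was -0.18. The 4 highest members were matn1, col2a1a, col9a3 and col9a1a. FPKM of the cartilage matrix gene matn1 was 10960 to 21751 in kat6a and 7687 to 21593 in WT, and of the collagen IX gene col9a3 5136 to 8401 in kat6a and 4708 to 9459 in WT. Both libraries numbered 1 were below the other 6 for 16 of the 26, against 6.21% of all tested genes. They were above the other 6 for 4 of the 26, namely acana, acanb, hapln1a and hapln1b. That was also so for 28.5% of all tested genes, so the 4 are no excess. These 4 genes encode aggrecan and the link proteins that tie it to hyaluronan. For acanb the margin was small, with 720 FPKM in WT replicate 1 and 718 FPKM in kat6a replicate 4. FPKM of hapln1a was 234, 65.8, 45.4 and 74.3 in kat6a libraries, against 321, 35.2, 47.3 and 62.5 in WT libraries. All 10 tested collagen genes of the list were among the 16 that stood lowest in the libraries numbered 1, where sox5, sox10, sox9b, acana and hapln1a stood highest. Of genes outside both sets, snorc, which encodes a cartilage proteoglycan, was at 613, 779, 724 and 751 FPKM in kat6a libraries, against 491, 644, 620.0 and 585 FPKM in WT libraries, higher in kat6a in 4 of 4 pairs. Its log2 fold change was 0.29 ± 0.14 (SE), with a limma adjusted p of 0.958.

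Partners and modifiers of SOX9 include the acetyltransferases CBP and p300, Mediator subunits and the ubiquitin ligase WWP2. Of 19 listed symbols 17 genes were tested. None was called and none had an unadjusted p under 0.05. Of the 17, 5 were above 0 and 12 below, near the 69.5% of all tested genes below 0. The median log2 fold change was -0.15, which was 0.049 under upper-quartile scaling. The highest was wwp2, at 204 to 343 FPKM in kat6a and 170 to 289 FPKM in WT, followed by ube2ib, a SUMO-conjugating enzyme gene, at 23.5 to 37.8 FPKM in kat6a and 22.5 to 27.9 FPKM in WT. The gene kat5a, found through a table of gene IDs and names, encodes another MYST acetyltransferase and was at 10.6 to 26.2 FPKM in kat6a and 13.2 to 34.9 FPKM in WT. The histone demethylase gene phf2 was at 8.94 to 20.4 FPKM in kat6a and 7.09 to 17.7 FPKM in WT. The groups did not overlap for 1 of the 17, beside 3.13% of all tested genes. This was the Mediator gene med12, at 2.32, 2.71, 3.28 and 1.38 FPKM in kat6a libraries, against 5.52, 3.44, 3.58 and 3.69 FPKM in WT libraries. Its log2 fold change was -0.58 ± 0.28 (SE), with a limma adjusted p of 0.958.

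Genes upstream of SOX9 or opposed to it, among them BMP receptors, the hedgehog ligand ihha, the parathyroid hormone related ligands and the bone factors runx2a, runx2b and sp7, were all tested, 21 of 21. None was called and none had an unadjusted p under 0.05. Their median log2 fold change was -0.22, with 4 above 0 and 17 below, beside 69.5% of all tested genes below 0. The beta-catenin gene ctnnb1 was at 93.8 to 239.5 FPKM in kat6a and 137 to 265 FPKM in WT, ihha at 25.1 to 93.5 FPKM in kat6a and 10.8 to 127 FPKM in WT, and the joint and cartilage factor nkx3.2 at 35.5 to 52.9 FPKM in kat6a and 42.6 to 75.5 FPKM in WT. Of 13 neural crest factors that act with sox10 in early crest 9 were tested, none was called and none had an unadjusted p under 0.05, and their median log2 fold change was -0.11, or 0.0040 under upper-quartile scaling. The early crest gene foxd3 did not pass the filter. The mesenchymal factor snai1a was the highest, at 62.6 to 139 FPKM in kat6a and 60.0 to 95.5 FPKM in WT. The inhibitor of DNA binding gene id2a followed, at 38.9, 64.5, 95.2 and 94.6 FPKM in kat6a libraries, against 12.9, 62.2, 92.9 and 22.4 FPKM in WT libraries. It was higher in kat6a in 4 of 4 pairs with overlap of the groups, and its log2 fold change was 0.91 ± 0.56 (SE), with a limma adjusted p of 0.958.

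**Figure D4:**
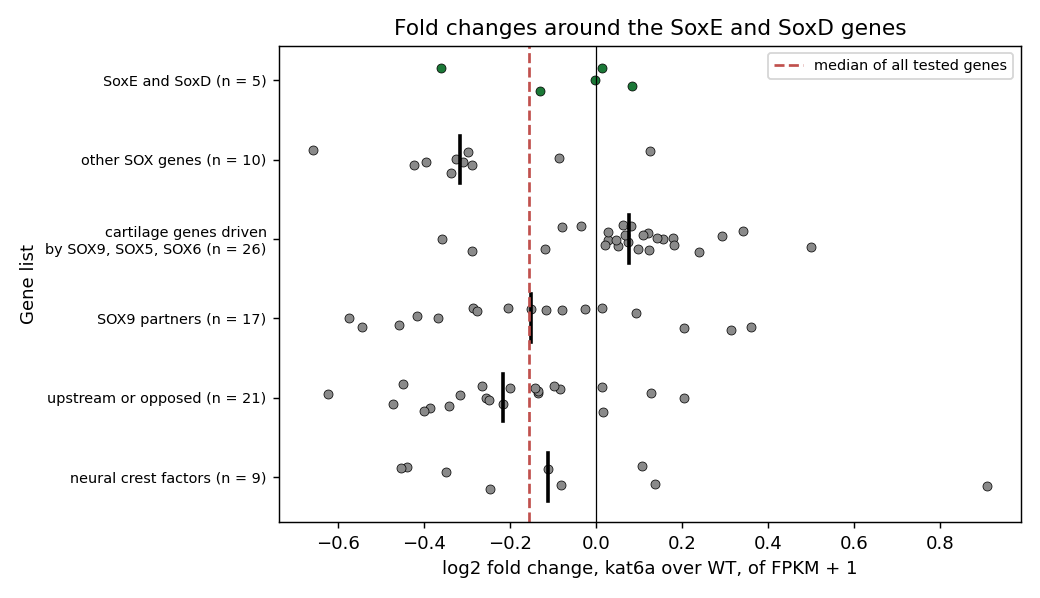
Log2 fold change of FPKM + 1, kat6a over WT, of the 5 Sox genes (green) and of the tested members of 5 gene lists (grey), with the median of each list as a black bar and the median of all tested genes, -0.16, as a dashed red line. No point was called, and the list medians lie between -0.32 for the other SOX genes and 0.078 for the cartilage genes.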

How the data were processed

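RNA of sorted chondrocytes was sequenced with a directional kit, per the labels' protocols. The authors deposited FPKM per gene and library, and each gene's fold with its p-value and q-value, per the file headers. The fold is a ratio with WT on top, as its values show. The submitters' processing notes list HISAT2, StringTie and GRCz10, while the sources used here give no versions, annotation or strand setting, so overlapping antisense reads cannot be told apart. Low values showed no common step that would give depth.

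Genes were taken by symbol. The test was limma's moderated test (version 3.58.1, R 4.3.3) of log2(FPKM + 1) with a trend of variance on mean and no block, adjusted over 11763 genes with a mean of at least 0.5 FPKM. No set test was run, and lists were described by counts and medians. Named genes are the 5 members, other SOX genes with a mean of at least 0.5 FPKM, the 4 highest and any with an unadjusted p under 0.05 in each list, the 3 nearest profiles, kat6a and col2a1a, some left out for length. Others (foxd3, sox8b, med12, acana, acanb, hapln1a, hapln1b, fbln2, snorc and the markers) were named after their values were seen. The members and lists were chosen with earlier results of these data known.

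Deviations of same-numbered libraries from their group means correlated with r = 0.589, 0.347, 0.127 and 0.151 across genes for numbers 1 to 4. Libraries of different numbers were not compared in this way, so these values cannot show that the numbers pair the libraries. The pairs and the replicate block follow the numbers of the sample titles, and no label states a pairing. The library names of WT replicates 3 and 4 carry the same number.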

Additional observations from a re-analysis of the deposited data

Results flagged for a closer look

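In groups of 4 a value was singled out when its gap to the nearest other value was above Dixon's 95% critical value. Of 38 such groups 5 held one. No rate expected by chance can be set beside this count. The groups are not independent, since shares and ratios reuse the values of the same genes, and med12 was named after its values were seen. All 5 values are in libraries numbered 1. For sox9b it was kat6a replicate 1, at 6.70 FPKM, and with it the share of sox9b in FPKM summed over sox9a, sox9b and sox10 in the same library, at 1.09%. For sox11a it was also kat6a replicate 1, at 24.8 FPKM. For sox21b and med12 it was WT replicate 1, at 1.86 and 5.52 FPKM.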

How the results depend on the processing

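In 19 alternatives for each of the 5 Sox genes, limma called none, and the smallest adjusted p was 0.565 and the smallest unadjusted p 0.0867. The sign of sox9a turned with median-ratio scaling (0.16, and 0.16 together with the replicate block), upper-quartile scaling (0.22), array weights (0.22) and without the pair numbered 1 (0.30). The sign of sox10 turned with median-ratio scaling (0.029, and 0.029 together with the replicate block) and upper-quartile scaling (0.088), and that of sox5 with array weights (-0.0043). With 1 library left out the log2 fold change ran from -0.22 to 0.32 for sox9a, -0.92 to 0.11 for sox9b, -0.33 to 0.10 for sox10, -0.19 to 0.22 for sox5 and 0.017 to 0.13 for sox6. The sign of sox8a turned with median-ratio scaling (0.044, also with the block), quantile normalisation (0.11) and upper-quartile scaling (0.094), and that of sox13 with quantile normalisation (0.013). Of all genes 2 were called in the fit to 8 libraries, 1 with the replicate block or a pseudocount of 0.1, 0 without a filter, with median-ratio scaling with or without the block, and with quantile or upper-quartile scaling, 14 with array weights, 4 without the pair numbered 1, and 0 to 5 with 1 library left out. The median of the other SOX genes was -0.57 with a pseudocount of 0.1 and -0.035 with quantile normalisation, and that of the neural crest factors -0.27 to 0.0031 with 1 library left out. No member of the 5 lists was called in any alternative. With a filter at a mean of 1 FPKM sox13 gave no value, and sox21b gave one in 15 of 19 alternatives. The replicate block changed no call of a named Sox gene. The causes of these moves were not tested. The kat6a minus WT difference in the log2 ratio of sox9b to sox9a was -0.67 and ran from -1.50 to -0.27 with 1 library left out, and that of sox5 to sox6 was -0.072, from -0.25 to 0.14. Both ratios were taken on FPKM without the added 1. The pooled SD within groups of the log2 ratio was 1.45 for sox9b to sox9a and 0.417 for sox5 to sox6. Read depth is not known, so what it limits could not be computed.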
